A study of Mus musculus with 25 samples.

Results

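The retinoid receptor genes *Rxra*, *Rxrb*, *Rxrg* and *Rarg* were followed in neurons sorted from the mouse sensorimotor cortex, with and without deletion of *Rest*, before and after spinal cord injury (SCI). They were taken by gene symbol from a list of 6 receptor genes, of which 4 had a row among the 9931 genes with a symbol. *Rara* and *Rarb* were not analysed here. *Rxrb* and *Rarg* were singled out because of their values in these libraries. *Rxrb* was chosen by its levels at day 7 and in sham mice, and *Rarg* by its levels at day 3, so those values are given as a description and were not tested.

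All mice, WT included, were C57BL/6 by label, were homozygous for a floxed *Rest* allele and for a TdTomato reporter behind a floxed stop sequence, and were between 4 and 6 weeks old by the study's methods. The sensorimotor cortex received AAV-Syn-GFP (WT) or AAV-Syn-Cre (REST cKO), both driven by the human synapsin promoter, which is active in neurons. The mice then had a sham operation or a complete crush of the cord at thoracic level 10, and GFP-positive or TdTomato-positive cells were sorted for 3′ mRNA sequencing. The 25 libraries were WT sham (n = 4), WT at SCI day 1, day 3 and day 7 (n = 3 each), and in REST cKO 3 sham libraries, 2 at day 1, 4 at day 3 and 3 at day 7. Values are log2 normalized counts. The study's methods give an average sequencing depth, and the depth of single libraries is unknown from the values. By label, every WT library of day 7 came from a female, and every REST cKO library of sham or day 7 from a male, so genotype and sex cannot be told apart at day 7.

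Retinoic acid, made from vitamin A, enters the nucleus and binds retinoic acid receptors (RARs). RARs sit on DNA as partners of retinoid X receptors (RXRs), recruiting corepressors without ligand and coactivators with it. RXRs also partner thyroid hormone receptors, PPARs, liver X receptors and the vitamin D receptor, and retinoic acid signalling is known for its roles in patterning the nervous system and in neurite outgrowth.

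The main features of the receptors were a low *Rxrb* in WT and a high *Rxrb* in REST cKO at day 7, the opposite order in sham mice, and a *Rarg* that was higher at day 3 than in sham in both genotypes as deposited. *Rxra* and *Rxrg* showed no difference past the threshold in any comparison. The day 3 values of *Rarg* carry a numerical irregularity, described with them. With values inferred from it the genotypes overlap at day 3, and in WT the day 3 libraries overlap those of sham.

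The sorted cells were checked against marker genes. All 6 neuronal markers measured had a row, led by *Syt1*, which stood at the 97.8th percentile of genes by mean log2 value. Of the microglial markers, 10 of 10 had a row, and *Ctss* and *C1qc* were at or above the 99.6th percentile. The mean of the 10 microglial genes ranged over the groups from 3.00 (REST cKO sham) to 3.34 (WT day 3), above the mean of the neuronal genes in every group, which ranged from 1.28 (WT sham) to 2.24 (REST cKO sham). Fewer cells of a type and less RNA per cell cannot be told apart in such pools, and levels of different genes are not scaled for length here.

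*Rxra*, the RXR with the highest mean value of the 4 genes, lies on chromosome 2 of GRCm38 (27676440 to 27762957, plus strand). Its mean over 25 libraries was 0.92 on the log2 scale, at the 58.8th percentile of genes. In WT sham its values were -1.05, 1.78, 1.40 and -0.51, and in REST cKO sham 1.75, 3.46 and -0.05. At day 7 they were 0.50, 1.85 and -1.33 in WT and 0.70, 2.06 and 0.91 in REST cKO. The groups overlapped at both times, and in all 10 comparisons between 2 groups. The highest group mean was 1.72 ± 1.76 (SD, n = 3) in REST cKO sham and the lowest 0.34 ± 1.60 (SD, n = 3) in WT day 7, so the whole order of group means lay within the spread of the libraries. Against WT, the fitted log2 difference in REST cKO was 1.40 (SE 1.17) in sham, -0.40 (SE 1.36) at day 1, 1.00 (SE 1.08) at day 3 and 0.92 (SE 1.08) at day 7. With 1 library left out, the sham value ran from 0.82 to 2.14, and those of days 1, 3 and 7 changed sign.

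*Rxrb*, the broadly expressed RXR, lies on chromosome 17 (34031812 to 34038399, plus strand). Its mean was low (-0.33, at the 20.8th percentile), and its SD over the 25 libraries was 1.80, at the 97.6th percentile of genes. At day 7 the 3 WT libraries had values of -3.55, -3.24 and -2.68, and the 3 REST cKO libraries 1.93, 1.96 and 1.16. Every REST cKO library at day 7 was above every WT library. The WT values stood at or below the 5.12th percentile of their own libraries, near the bottom of the range, and the REST cKO values between the 59.9th and the 77.7th. The group means were -3.16 ± 0.44 (SD, n = 3) and 1.68 ± 0.45 (SD, n = 3). The fitted log2 difference was 5.12 (SE 1.07), which is a description, since these values chose the gene. At day 7, 12.4% of all genes did not overlap between the genotypes.

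In sham mice *Rxrb* stood the other way round. Its values were 1.43, 1.84, -0.57 and 0.09 in WT sham, and -3.53, -2.23 and -0.46 in REST cKO sham. The 2 lowest REST cKO libraries were below all WT libraries, while the third was within the WT range, so the groups overlapped. The fitted log2 difference was -3.72 (SE 1.16), also a description, in a comparison where 7.86% of genes did not overlap.

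At day 1 the WT values of *Rxrb* were -2.67, 0.19 and -0.12, and the 2 REST cKO values -0.0041 and -0.20. At day 3 they were 2.46, -0.28 and -0.71 in WT, and 0.57, -0.49, 1.64 and -0.72 in REST cKO. The genotypes overlapped at both times. The log2 differences were -0.34 (SE 1.35) at day 1 and 0.46 (SE 1.07) at day 3, and both changed sign without the sequencing components in the model, or with 1 library left out.

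Read along time, *Rxrb* in WT was highest in sham (0.70 ± 1.13, SD, n = 4) and lowest at day 7, and only the day 7 libraries lay wholly below sham. The log2 differences from sham in WT were -1.18 (SE 1.05), -1.05 (SE 1.12) and -4.31 (SE 1.02) at days 1, 3 and 7, where 7.02%, 6.54% and 6.87% of genes did not overlap. In REST cKO the ends of the order were reversed, with sham lowest (-2.07 ± 1.54, SD, n = 3) and day 7 highest. The libraries of day 1 and of day 7 lay wholly above sham. The differences were 2.19 (SE 1.18), 3.12 (SE 1.11) and 4.53 (SE 1.15), where 20.4%, 6.69% and 10.7% of genes did not overlap. With 1 library left out, the WT differences shrank to as little as -0.45 at day 1 and -0.44 at day 3, and without the components that of day 3 was -0.21. The days of a genotype share its sham libraries, so these differences are not independent. The contrast of the injury responses between genotypes was 3.38 (SE 1.55) at day 1, 4.18 (SE 1.75) at day 3 and 8.83 (SE 1.61) at day 7. Of the 8 group means, REST cKO day 7, WT sham, WT day 3, REST cKO day 3 and REST cKO day 1 came first in that order, followed by WT day 1, REST cKO sham and WT day 7. No neighbours in this order differed by more than the larger of their SDs.

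The labels give 3 batches. Within batch 1, *Rxrb* at day 7 was 5.32 higher on the log2 scale in REST cKO (n = 1) than in WT (n = 2), and within batch 2 it was 4.65 higher (n = 1 against 1). Batch 3 held no WT library at day 7. In sham the differences were -5.17 in batch 1 and -1.99 in batch 2. Both sexes were present in 5 groups. The female and male means of *Rxrb* were 0.64 (n = 2) and 0.76 (n = 2) in WT sham, 0.04 (n = 2) and -2.67 (n = 1) in WT day 1, and 2.46 (n = 1) and -0.50 (n = 2) in WT day 3. In REST cKO they were -0.0041 and -0.20 at day 1 (n = 1 each) and -0.21 (n = 3) and 1.64 (n = 1) at day 3. The part of sex in *Rxrb* was not tested, and the sexes differed by more than 1 in 3 of the 5 groups, in both directions.

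**Figure D1:**
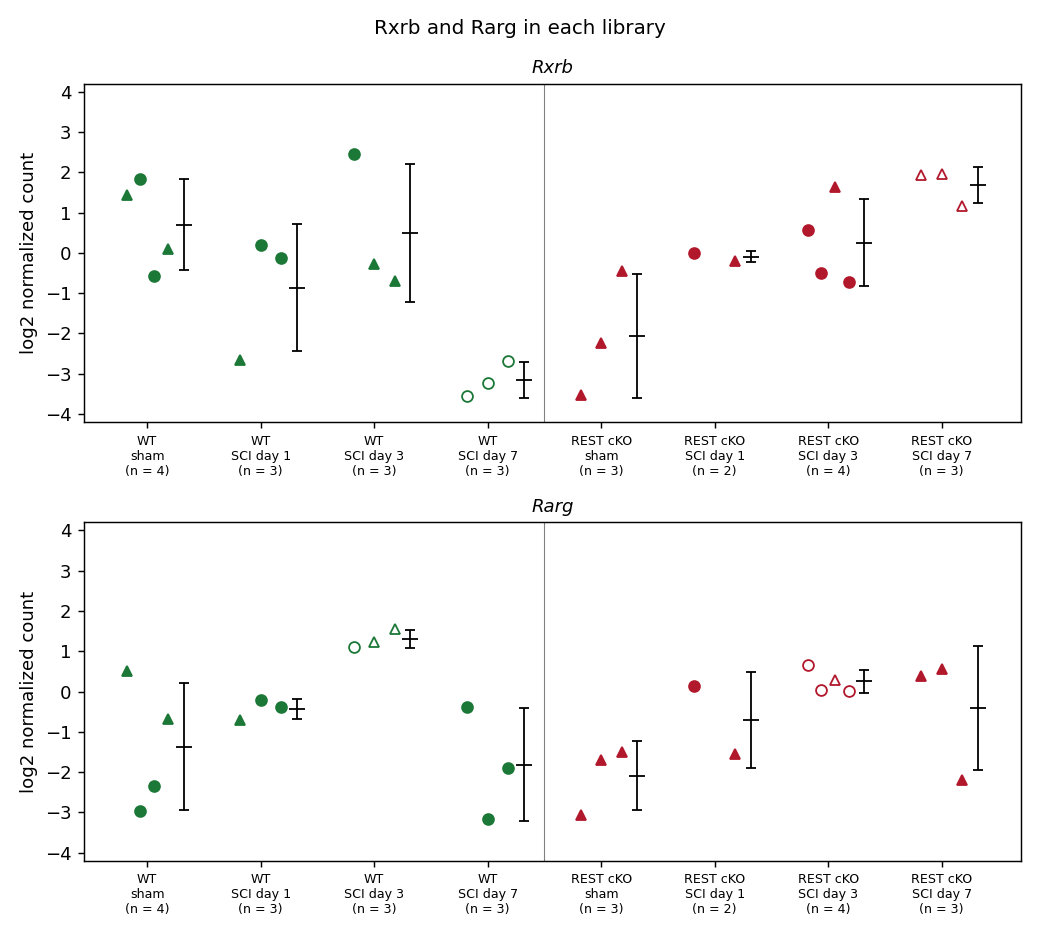
Log2 normalized count of *Rxrb* (top) and *Rarg* (bottom) in each library of the 8 groups; circles are female and triangles male mice, open symbols are values written with fewer decimals, and bars show mean ± SD. At day 7 the 3 WT values of *Rxrb* lie between -3.55 and -2.68 and the 3 REST cKO values between 1.16 and 1.96.

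Some lists of neuronal markers were also higher in REST cKO at day 7. The mean of the 5 excitatory cortical markers was -0.04 in WT (libraries from -0.49 to 0.38) and 1.11 in REST cKO (0.80 to 1.56), with *Slc17a7* the most abundant (1.32 and 2.03). The mean of the 6 neuronal markers was 1.35 in WT (0.85 to 1.60) and 1.85 in REST cKO (1.64 to 2.15). In neither list did the genotypes overlap at day 7. In sham, where *Rxrb* was lower in REST cKO, 3 lists were higher in REST cKO without overlap. The neuronal mean was 1.28 in WT (0.40 to 1.68) and 2.24 in REST cKO (1.76 to 2.52), the astrocytic mean 1.16 (0.80 to 1.42) and 2.37 (2.06 to 2.75), and the fibroblast mean -0.69 (-1.20 to -0.35) and 0.37 (-0.25 to 1.21). In other lists the day 7 means in WT and REST cKO were 0.97 and 0.92 for layer 5 neurons (*Bcl11b* alone) and -0.86 and -0.55 for inhibitory neurons (4 of 6 genes). Striatal markers (3 of 7) were at -1.67 and 0.70 without overlap, though *Penk* among them has short values that correlate with a component. Astrocytes were at 1.66 and 2.42 (4 of 7), oligodendrocytes at 0.47 and 0.55 (6 of 6), their precursors at 1.93 and 1.60 (*Cspg4* alone), and endothelium at 1.45 and 1.93 (5 of 5). Pericytes were at 2.04 and 2.25 (2 of 2) and meningeal fibroblasts at -0.04 and 1.06 (3 of 4). The microglial mean at day 7 was 3.31 in WT and 3.19 in REST cKO. The part of cell makeup in the values of *Rxrb* was not tested.

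*Rxrg*, the RXR of more restricted expression, lies on chromosome 1 (167598384 to 167639623, plus strand). Its mean was -0.49, at the 16.7th percentile. At day 7 its values were 1.67, 0.03 and 0.25 in WT, and -2.63, -0.21 and -1.62 in REST cKO. All 3 REST cKO libraries were below all 3 WT libraries, as happened in one direction or the other for 12.4% of genes. The log2 difference was -1.92 (SE 1.33), with an adjusted p of 0.669 in limma. It was -3.48 within batch 1 and -0.46 within batch 2. At day 3 the values were -3.43, -0.91 and 1.08 in WT, and -3.05, -0.96, -0.96 and -1.28 in REST cKO, with groups that overlapped. The log2 differences at the other times were -1.33 (SE 1.43) in sham, -2.69 (SE 1.67) at day 1 and 0.07 (SE 1.33) at day 3. Leaving out 1 library changed the sign in sham and at day 3, and moved day 1 between -4.91 and -0.98. The day 3 value became negative without the components, with library weights and with quantile normalization.

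**Figure D2:**
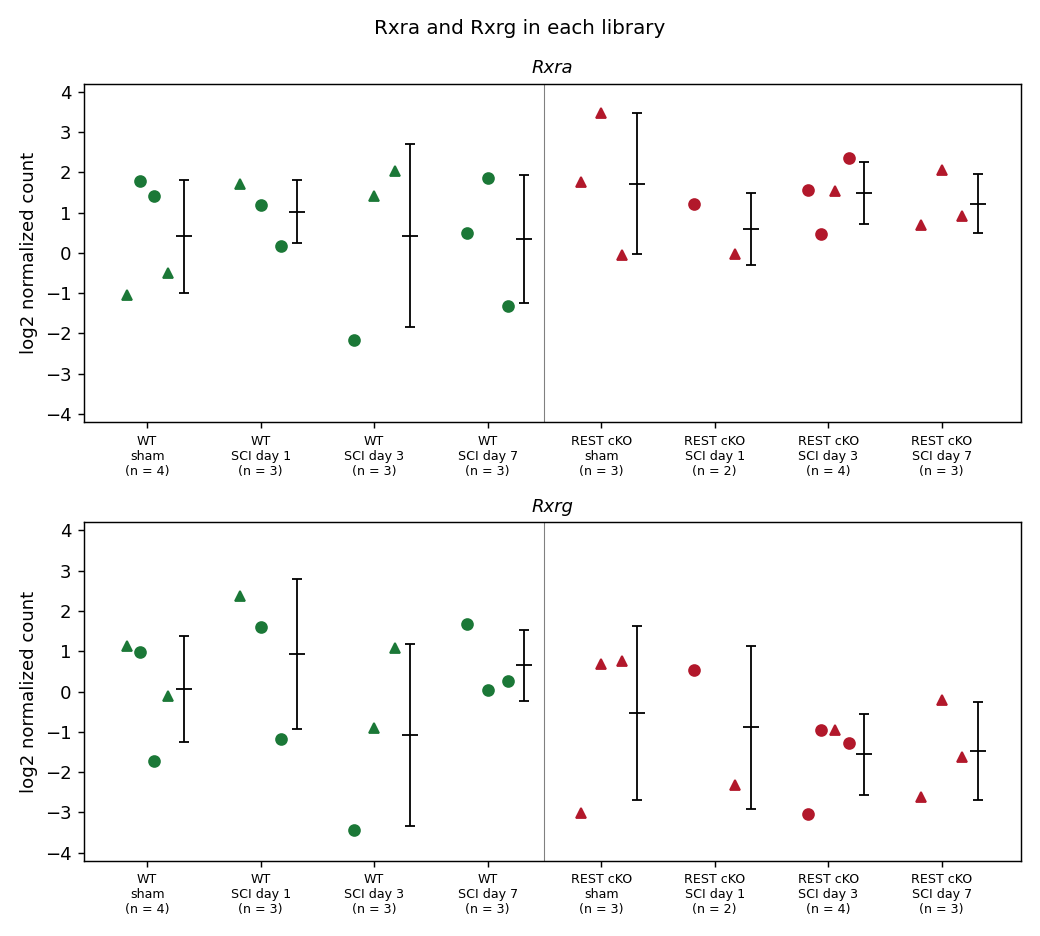
Log2 normalized count of *Rxra* (top) and *Rxrg* (bottom) in each library of the 8 groups; circles are female and triangles male mice, and bars show mean ± SD. The groups of *Rxra* overlap throughout, and those of *Rxrg* are apart at day 7, where the REST cKO values run from -2.63 to -0.21 and the WT values from 0.03 to 1.67.

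*Rarg*, one of the RARs that bind retinoic acid, lies on chromosome 15 (102234938 to 102257517, minus strand). It had the lowest mean of the 4 genes (-0.65, percentile 13.2). As deposited, its day 3 values were 1.11, 1.24 and 1.56 in WT, and 0.65, 0.05, 0.29 and 0.02 in REST cKO. All 4 REST cKO libraries were below all 3 WT libraries, a separation in either direction seen in 7.59% of genes. The group means were 1.30 ± 0.23 (SD, n = 3) and 0.26 ± 0.29 (SD, n = 4), and the log2 difference was -1.01 (SE 1.09). These values chose the gene and were not tested.

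In the sham and day 7 groups *Rarg* spread more widely. Its values were 0.52, -2.96, -2.34 and -0.69 in WT sham and -3.07, -1.69 and -1.50 in REST cKO sham. At day 7 they were -0.38, -3.17 and -1.89 in WT and 0.38, 0.57 and -2.19 in REST cKO. Both pairs of groups overlapped, as did those of day 1, where 18.6% of genes did not. The SD was 1.58 in WT sham, 1.40 in WT day 7, 1.54 in REST cKO day 7, 0.86 in REST cKO sham and 1.19 in REST cKO day 1, against 0.26 in WT day 1 and 0.23 and 0.29 at day 3. The log2 differences between the genotypes were -0.75 (SE 1.17) in sham, -0.43 (SE 1.36) at day 1 and 1.51 (SE 1.08) at day 7. The first 2 changed sign with 1 library left out, and that of day 7 ran from 0.75 to 2.34.

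Both genotypes were higher at day 3 than in sham as deposited, with no overlap, where 6.54% of genes in WT and 6.69% in REST cKO did not overlap. The difference from sham at days 1, 3 and 7 was 1.10 (SE 1.06), 2.63 (SE 1.13) and -0.48 (SE 1.03) in WT, and 1.42 (SE 1.19), 2.38 (SE 1.12) and 1.78 (SE 1.16) in REST cKO. The contrast of the injury responses between genotypes was 0.32 (SE 1.56) at day 1, -0.25 (SE 1.76) at day 3 and 2.26 (SE 1.63) at day 7. With 1 library left out, the WT difference at day 7 and the contrasts at days 1 and 3 changed sign, and the REST cKO differences shrank to as little as 0.53, 1.15 and 0.69. Within batches the day 3 difference between genotypes was -0.46 in batch 1, -1.06 in batch 2 and -1.54 in batch 3.

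The day 3 values of *Rarg* and the day 7 values of *Rxrb* are written with at most 9 decimals, while the other values of both genes have more. Blocks of 6 or more such short values occur in 217 of 9931 genes, in 129 of them at day 7 alone and in 67 at day 3 alone. Regressing the first 2 sequencing components out of the values would leave a gene uncorrelated with them. That this was done to the deposited values is inferred from the correlations given next. Among genes without a block the largest correlation was 1.14e-10, while 140 of the 217 genes with a block exceeded 1e-05. *Rarg* is one of the 140, with correlations of 0.0057 and -0.0232. *Rxrb* is not, with at most 1.21e-11 despite its 6 short values, and *Rxra* and *Rxrg* have no short value.

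A search was made for changes of sign, steps in multiples of 0.5 up to 3, or both, in at most 3 of the short values, that would bring the covariance of a gene with both components to 0 within 1e-05. For *Rarg*, 1 of 560175 sets of changes did so, with a covariance of 1.25e-09, and the next closest left 0.0531. In that solution WT replicate 16 moves from 1.24 to -2.24, REST cKO replicate 20 from 0.29 to 2.29 and REST cKO replicate 27 from 0.02 to -0.02, and the other 4 values stay. With the solved values the genotypes overlap at day 3, and the log2 difference turns from -1.01 to 1.00. The difference from sham at day 3 becomes 1.03 in WT, where the groups then overlap, and 3.28 in REST cKO, where they still do not. The solution is the only one within the changes searched, and it is an inference about the numbers, not a measurement. Why the values are written this way was not tested.

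Among all 196 genes with short values in every library of exactly 1 of the 2 days, 126 correlated with a component, and 125 of these had a single solution with the fewest libraries. The 70 others, *Rxrb* among them, already have a covariance of 0, so the search says nothing about whether their short values were changed. Of all genes, 7.59% did not overlap between the genotypes at day 3 and 12.4% at day 7. In these 70 genes the genotypes did not overlap at the day of the short values in 23 as deposited. In the 125 genes the genotypes did not overlap at that day in 89 as deposited and in 25 with the solved values. The order of *Rarg* between genotypes at day 3 thus depends on which of its values are taken.

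**Figure D3:**
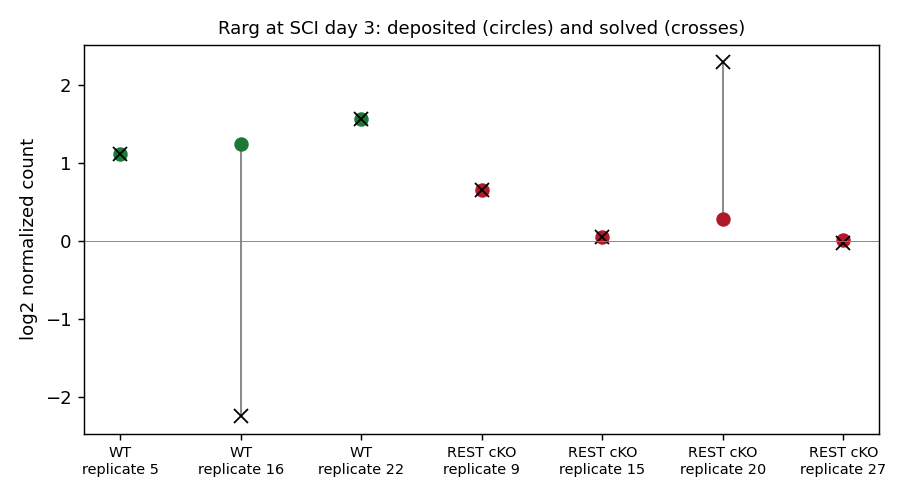
Log2 normalized count of *Rarg* in the 7 day 3 libraries, as deposited (circles; green WT, red REST cKO) and as solved from zero covariance with the sequencing components (crosses), joined by a line. The solved values differ by more than 1 in WT replicate 16 and REST cKO replicate 20.

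*Rest*, the deleted gene, lies on chromosome 5 (77265491 to 77286432, plus strand). Its day 7 values were 0.26, 2.30 and 2.74 in WT, and -1.21, -0.33 and -0.97 in REST cKO, with no overlap, as for 12.4% of all genes. The log2 difference was -1.47 (SE 0.991) in sham, -1.37 (SE 1.16) at day 1, -1.61 (SE 0.922) at day 3 and -2.28 (SE 0.921) at day 7 (lowest adjusted p 0.401 in limma). All 25 values of *Rest* are short and correlate with the first component (0.326), so they check the labels only weakly. Where the deleted part lies relative to the sequenced 3′ end is not given in the sources used here.

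*Rxra* and *Rxrg* were tested with limma over all 9931 genes. In REST cKO against WT, 0 of 8 tests passed an adjusted p of 0.1 (lowest 0.669), where 0.0302%, 0%, 0% and 0% of genes passed in sham and at days 1, 3 and 7. These shares belong to the present fit of the deposited log2 values. The paper used limma voom at an adjusted p under 0.1, and reported genes changed by *Rest* deletion in sham and at days 3 and 7. They were most numerous at day 7. Why the 2 fits differ was not tested. In SCI against sham, 0 of 6 tests passed in WT (lowest 0.861; 0%, 0.0101% and 0% of genes at days 1, 3 and 7) and 0 of 6 in REST cKO (lowest 0.973; 0%, 0.0201% and 0%). In the contrast of injury responses, 0 of 6 passed (lowest 0.955; 0%, 0% and 0.0201%). The share at day 7 is 2 genes and includes *Rxrb*, since the fit covered all genes. These values chose *Rxrb*, so its place in the share is not read as a test of it. At an unadjusted p under 0.05 the count was also 0 in each. The shares of all genes at that level were 6.91%, 3.81%, 6.37% and 9.95% between genotypes, 6.43%, 6.9% and 6.89% for SCI in WT, 5.29%, 4.65% and 5.67% for SCI in REST cKO, and 5.77%, 5.15% and 6.35% for the contrast. A share of 0 passing does not show that the levels were alike, since the standard errors exceeded 1 on the log2 scale.

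Over the 25 libraries Pearson's r was 0.45 (Spearman's rho 0.45) between *Rxrb* and *Rarg*, and between -0.30 and 0.17 in the other 5 combinations. The 5 genes with the highest r to *Rxrb* were *Bloc1s4* (0.76), *Vav2* (0.75), *Nup214* (0.73), *Mrpl38* (0.73) and *Alas1* (0.72). Those nearest to *Rarg* were *Chrd* (0.73), *Fbxw2* (0.73), *Gstk1* (0.72), *Ccdc189* (0.69) and *Tmem151b* (0.69). These were the highest among all genes and are a description. *Alas1* and *Chrd* are among the genes with short day 7 values that correlate with a component.

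Of the 73 different genes in 7 lists of the retinoid pathway, 38 had a row, and none of the 3 Cyp26 enzymes that clear retinoic acid did. In 494 tests of the 38 genes over 13 comparisons, 0 passed the adjusted threshold in limma (lowest adjusted p 0.161), and 32 had an unadjusted p under 0.05, where between 3.81% and 9.95% of all genes did in each comparison. Between genotypes, the genes higher and lower at that level were 2 and 1 in sham, 2 and 1 at day 1, 0 and 1 at day 3, and 5 and 0 at day 7, where 9.95% of all genes were. For SCI against sham at days 1, 3 and 7 they were 4 and 1, 1 and 2, and 1 and 3 in WT, and 0 and 0, 0 and 2, and 0 and 0 in REST cKO. For the contrast they were 1 and 1, 0 and 3, and 0 and 1. Without overlap between genotypes, 4 were higher and 1 lower in sham (7.86% of all genes), 4 and 1 at day 1 (18.6%), 2 and 1 at day 3 (7.59%), and 6 and 1 at day 7 (12.4%). The median log2 difference at day 7 was 0.16, beside 0.23 for all genes.

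For the supply of ligand, 10 of 18 genes of retinoic acid synthesis had a row. Their median log2 difference in REST cKO against WT was -0.45 in sham, 0.71 at day 3 and -0.51 at day 7, beside 0.04, 0.05 and 0.23 for all genes. By the smallest unadjusted p, the genes named were *Rdh11* (2.80, SE 1.31) and *Bco2* (-2.68, SE 1.44) in sham, *Rdh5* (1.99, SE 0.997) and *Rdh12* (1.99, SE 1.05) at day 3, and *Rdh13* (1.37, SE 0.775) and *Bco2* (1.25, SE 1.34) at day 7. Of 13 genes of uptake, binding and storage, 4 had a row, with a median of -0.06 in sham, 0.04 at day 3 and 1.185 at day 7.

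Of 13 receptors that partner RXRs, 5 had a row. *Thra*, a thyroid hormone receptor, had the lowest adjusted p of the pathway. Its sham values were -0.02, 0.84, 0.71 and 0.64 in WT and 2.47, 2.43 and 2.49 in REST cKO, without overlap, as for 7.86% of all genes. The log2 difference was 2.39 (SE 0.549, adjusted p = 0.161 in limma) in sham and 0.35 (SE 0.510) at day 7, where the groups overlapped. The other thyroid hormone receptor, *Thrb*, had a difference of -2.73 (SE 1.26) at day 3 and 2.58 (SE 1.26) at day 7. The other partners named by the same rule were *Nr4a1* (1.41) in sham and *Ppard* (2.17 at day 3 and -1.92 at day 7).

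Of the cofactors, 8 of 9 coactivators and 7 of 8 corepressors had a row. At day 7 *Ncoa1*, a coactivator, was 0.35, 0.17 and -1.67 in WT and 2.46, 1.99 and 0.54 in REST cKO. The genotypes did not overlap as deposited, as for 12.4% of all genes. However, *Ncoa1* has short day 7 values that correlate with a component, and with the solved values the genotypes overlap. *Hdac3*, a corepressor gene with no short value, was 2.48 higher on the log2 scale in REST cKO at day 7 (SE 1.19, adjusted p = 0.497 in limma). *Ncoa3* had a difference of -2.15 (SE 0.906) in sham. The rule also named the cofactors *Kat2b* (-2.11), *Nrip1* (0.91) and *Gps2* (-0.67) in sham, *Ep300* (-0.60), *Kat2b* (1.37) and *Nrip1* (-1.46) at day 3, and *Med1* (0.40) at day 7. Of 17 target genes 7 had a row, with a median of 0.22 in sham, 0.07 at day 3 and 0.13 at day 7. Among targets and carriers the rule named *Meis2* (2.02) and *Fabp5* (-1.28) in sham, *Fabp5* (0.63) at day 3, and *Stra6l* (2.64) and *Dhrs3* (-0.60) at day 7.

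None of the 4 receptor genes overlaps another annotated gene in GENCODE for GRCm38. Each has 2 promoter windows around an annotated start in RefSeq (GRCm38.p6). They were searched on both strands for AGGTCA, the hexamer that RAR and RXR bind, which occurs in 16.3% of 32851 such windows. It was found for *Rxra*, *Rxrg* and *Rarg* and in neither window of *Rxrb*. The matches are shown with their surroundings because they are the letters these receptors themselves recognise, with the hexamer or its reverse complement in capitals.
*Rxra*, chr2:27709232-27709261, plus strand: gggtggcaggaaAGGTCAgtcactctctgt
*Rxra*, chr2:27709193-27709222, plus strand: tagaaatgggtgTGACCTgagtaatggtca
*Rxrg*, chr1:167618165-167618194, plus strand: atcggggttgaaAGGTCAgctgaaagcttc
*Rarg*, chr15:102257730-102257759, minus strand: agcccaggacacTGACCTctgccagctctg
A match is a description of letters and not of a bound site. AGTTCA, a variant of the hexamer, occurs in 14% of the windows and was found once, for *Rxrg*. Of the 2 parts of the RE1 element that REST binds, TTCAGCACC occurs in 0.371% of the windows and in none of those of the 4 genes. The other, GGACAG, occurs in 22.2% and was found at 2 places in a window of *Rxra*.

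Several limits apply. Groups held between 2 and 4 libraries, genotype and sex were joined at day 7, and *Rxrb* and *Rarg* were chosen on the values described. The values of *Rxrb* at day 7 and of *Rarg* at day 3 are the ones written with fewer decimals. They were not checked against other data, and the authors' own fold changes between groups were not used. Microglial transcripts were abundant in cells labelled as neurons, so the cell in which a receptor transcript arose cannot be told. Transcript levels say nothing of receptor protein, ligand or DNA binding, which were not measured here.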

How the data were processed

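The authors deposited 1 table of log2 normalized counts. By the study's methods, reads were aligned to mm10/GRCm38 with STAR, quantified with Salmon and summed per gene with tximport. Counts were scaled by DESeq2's geometric-mean method and corrected with RUV, and genes without counts in most samples were dropped. The methods use 2 sequencing components as covariates when comparing groups. For the network analysis, sequencing covariates were regressed out, with no number given. That the 2 components were removed from the deposited values is inferred from their correlations. Versions are not given in the sources used here. The table's own fold changes, p-values and adjusted p-values between groups were not used. Of 9955 rows, 24 without a symbol were left out.

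The model, run in R 4.3.3 with limma 3.58.1, held 8 group means and the 2 components, with variances moderated along a trend. Adjustment (Benjamini-Hochberg) covered 9931 genes, the threshold was an adjusted p under 0.1, and the code recovered the mean of planted differences. Replicates are libraries, which the paper describes as mice and the labels do not tie to animals, so p-values measure the spread between libraries. The methods give an average depth, and that of each library is unknown from the values. Named genes were the receptors, *Rest*, the 2 pathway genes of each list with the smallest unadjusted p in 3 comparisons, any past the threshold, and the 5 most correlated genes. Not every gene the rule names is given. The members and lists were chosen with earlier results of these data known. The search for changed values was likewise written with earlier results known and after seeing the data. It was first tried on 4 genes, with searches for sign changes alone and for swapped values, and then run on 196. Python 3.11.15 was used for the rest.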

Additional observations from a re-analysis of the deposited data

Results flagged for a closer look

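*Rxrb* at day 7 had a contrast of injury responses between genotypes of 8.83 on the log2 scale (SE 1.61). The 3 WT libraries were below all WT sham libraries and the 3 REST cKO libraries above all REST cKO sham libraries. The gene was chosen for these values, so the difference was not tested.

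*Rxrg* in REST cKO at day 3 had 1 library far from the others. Replicate 9 was at -3.05 and the others between -1.28 and -0.96, a gap of 0.845 of the group's range. Of the 8 groups of 4 libraries examined over the 4 genes, 1 was so marked, and chance marks about 1 in 20.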

How the results depend on the processing

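The counts of *Rxra* and *Rxrg* tests past the threshold were 0 in all 4 kinds of comparison under each alternative run, including leaving out each of 25 libraries. Of 34 log2 differences, 21 kept their sign in every run that gave a value, among them those of *Rxrb* between genotypes in sham and at day 7. With a library left out, these ran from -4.36 to -2.81 in sham and from 4.82 to 5.42 at day 7. Both are descriptions, since these values chose *Rxrb*. At day 7 the highest WT library was at -2.68 and the lowest REST cKO library at 1.16. Leaving out a library is therefore no test of the sign at day 7.

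Without the components, over all groups or only those compared, *Rxrb* between genotypes was 0.76 at day 1 and -0.24 at day 3, and *Rxrg* at day 3 was -0.47. The deposited values were inferred to have had the components removed already, so a fit without them is not one of unadjusted values. *Rxrg* at day 3 was also -0.47 with library weights and -0.026 with quantile normalization. The *Rarg* contrast of injury responses was -0.054 at day 1 with quantile normalization and 0.29 at day 3 with a term for sex. With the solved values, an alternative chosen after seeing the data, *Rarg* between genotypes at day 3 was 1.00 and its contrast 2.26. These solved values differ by construction. The cause of the other changes was not tested.

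With a library left out, the differences between genotypes that changed sign ranged as follows. For *Rxra* they ran from -1.13 to 0.15 at day 1, -0.14 to 1.75 at day 3 and -0.034 to 1.80 at day 7. For *Rxrb* they ran from -1.16 to 0.21 at day 1 and -0.16 to 1.24 at day 3. For *Rxrg* they ran from -2.17 to 1.06 in sham and -1.05 to 1.03 at day 3. For *Rarg* they ran from -1.54 to 0.55 in sham and -1.45 to 0.35 at day 1. The *Rarg* difference of WT day 7 from sham ran from -1.30 to 0.30, and its contrasts from -0.56 to 1.29 at day 1 and -1.93 to 0.69 at day 3. Others kept their sign but moved far. These were *Rxrg* between genotypes at day 1 (-4.91 to -0.98), *Rarg* between genotypes at day 7 (0.75 to 2.34), *Rarg* in REST cKO from sham at day 1 (0.53 to 2.34), day 3 (1.15 to 2.65) and day 7 (0.69 to 2.50), and its contrast at day 7 (0.96 to 3.16). Also among them were *Rxra* between genotypes in sham (0.82 to 2.14), and in WT from sham *Rxrb* at day 1 (-1.73 to -0.45) and day 3 (-1.80 to -0.44) and *Rarg* at day 1 (0.60 to 1.80). Where 1 library was left in REST cKO day 1, it was assumed to vary like the other groups.

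Treating short values as missing gave no value for *Rxrb* at day 7 or *Rarg* at day 3, and solving them directly was not run, since 6 and 7 values were short and it allows at most 2. A mean of at least 0 left only *Rxra*. No paired analysis was possible because no replicate number is shared between groups. Depth could not be varied, since only its average is given.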
